A study of Mus musculus with 119 samples.

Results

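*Tnfaip3*, *Tnip1*, *Tnip3*, *Birc3*, *Traf1* and *Cyld*, which encode A20 and other proteins that act on NF-κB signalling, were followed across all genotypes, inhibitors and times of LPS. They were selected by symbol, 6 of the 18098 genes with a value in each of 119 RNA-seq libraries, and all 6 passed the filter on low values. Macrophages were grown for 7 days from the bone marrow of both femurs in L-cell conditioned medium (BMDMs, strain C57BL/6(NIMR) in the labels). They were kept overnight in 1% FBS. LPS, which signals through TLR4, was used at 100 ng/ml. For wild type (WT) there were 6 libraries each without LPS and at 0.5 and 1 h, and 4 at 2 h. *Map3k8*[D270A] cells, whose TPL-2 kinase is inactive, gave 6 libraries at each of the 4 times. *Elk1*-/-*Elk4*-/- cells, which lack a pair of ternary complex factors (partners of SRF that ERK phosphorylates), gave 4 at each of these times. *Nfkb1*[SS/AA] cells, whose p105 is not broken down on stimulation, so that TPL-2 stays bound to it, gave 6 each without LPS and at 0.5 and 1 h. WT cells with PD0325901 (0.1 µM), which blocks MKK1/2 and so ERK1/2, gave 6 libraries at each of 0.5 and 1 h with LPS, and 3 each after 10, 40 and 70 min of inhibitor alone. WT cells with RSKi47 (2 µM), an inhibitor of the ERK-activated kinases RSK1/2, gave 4, 3, 4 and 4 libraries without LPS and at 0.5, 1 and 2 h. A further 3 libraries of WT cells had 10 min of the solvent DMSO without LPS. The inhibitors were given 10 min before LPS. No source used here states the age of the animals.

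The comparisons ask whether the levels of these 6 genes depend on TPL-2 and on the kinases and factors downstream of it. The deposited values are on a log2 scale whose transformation is not named, so differences are given on that scale without conversion to folds, and levels are not compared between genes. The labels put WT and *Map3k8*[D270A] cells in the same experiment and each other genotype and inhibitor in another, so that for these arms the treatment or genotype and the experiment cannot be told apart, and no solvent control with LPS was analysed here. The study's methods call the libraries biological replicates, but neither they nor the labels say whether these are separate animals or cultures, so that p-values measure the spread between these libraries. The WT libraries fell into sets, replicates 4 to 6 (the first WT set) and 7 to 9 (the second WT set), which stood apart together with *Map3k8*[D270A] replicates 1 to 3 and 4 to 6. At 2 h the second WT set is replicate 7 alone, whose spread was taken to be that of the other groups. Differences from WT that passed the test are therefore also given with each WT set. For *Map3k8*[D270A] these are differences within the matching sets. *Nfkb1*[SS/AA] replicate 2 at 1 h and RSKi47 replicate 4 at 2 h also stood apart from their groups, and calls lost without any 1 replicate number, which is then left out at all its times, are named beside each result. *Elk1* and *Elk4* were at 6.17 to 6.59 and 5.51 to 5.88 in the *Elk1*-/-*Elk4*-/- libraries, against 9.04 to 9.49 and 7.57 to 8.49 in WT, and the other alleles are point mutations that mRNA levels do not check. All 8 macrophage markers were tested in every arm, with a lowest value of 9.48 (*Mertk*). Of these, 2 and 3 were lower in *Map3k8*[D270A] cells at 1 and 2 h, and in every other arm 1 to 3 were higher and 1 to 3 lower at each time. Their sum on the linear scale was 335209 to 430175 in *Elk1*-/-*Elk4*-/-, 428109 to 615521 in *Nfkb1*[SS/AA] and 393525 to 524758 in WT libraries. At each time all *Elk1*-/-*Elk4*-/- sums lay below all WT sums, without LPS at 335209 to 355949 against 398797 to 455154. At 2 h both dendritic markers tested were lower in *Map3k8*[D270A] and *Elk1*-/-*Elk4*-/- cells and 1 with RSKi47. At 0.5 h 1 was higher in *Elk1*-/-*Elk4*-/- cells, with PD0325901 and with RSKi47, as was 1 with RSKi47 without LPS. At 1 h 1 was higher with PD0325901, and 1 higher and 1 lower in *Nfkb1*[SS/AA] cells and with RSKi47. The WT sum of 3 dendritic markers on the linear scale was 17.9 to 19.5 without LPS and 54.6 to 62.0 at 2 h. The 1 B-cell marker tested (*Cd79b*) was lower with RSKi47 at all 4 times and higher in *Elk1*-/-*Elk4*-/- cells and with PD0325901 and LPS. The sum of 8 neutrophil markers on the linear scale was 75.7 to 214 in WT, 70.5 to 186 in *Map3k8*[D270A] and 1051 to 2108 in *Elk1*-/-*Elk4*-/- libraries. It was 106 to 326 in *Nfkb1*[SS/AA], 157 to 449 in PD0325901, 186 to 304 in DMSO and 136 to 385 in RSKi47 libraries. *Ly6g* and *Elane* reached at most 0.60 and 0.95 on the log2 scale. In *Elk1*-/-*Elk4*-/- cells 5 of the 5 neutrophil markers tested were above WT at each time, as were 5 with PD0325901 and LPS and in DMSO, 4 or 5 with RSKi47 and 3 in *Nfkb1*[SS/AA] cells at 1 h. A fibroblast sum over 4 markers on the linear scale was 12.9 to 27.4 in WT and 30.7 to 680 in RSKi47 libraries, where both markers tested were higher at all 4 times. The 1 tested in *Elk1*-/-*Elk4*-/- cells was higher at 0.5, 1 and 2 h. *Dcn* and *Pdgfra* reached at most -0.63 and -0.20 on the log2 scale. No T-cell or erythroid marker reached the level to be tested. The part of these other cells in the results below was not tested, and in such bulk samples fewer cells of a type and less RNA per cell cannot be told apart.

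A20, the product of *Tnfaip3*, edits ubiquitin chains on receptor complexes and so ends NF-κB signalling, and its gene is itself induced by NF-κB, which closes a feedback loop. The A20-binding proteins ABIN-1 (*Tnip1*) and ABIN-3 (*Tnip3*) bring A20 to ubiquitinated targets. cIAP2 (*Birc3*) is a ubiquitin ligase that is recruited by TRAF proteins, TRAF1 (*Traf1*) is an adaptor that binds cIAP2, and CYLD (*Cyld*) is a deubiquitinase that removes the chains on which IKK activation rests.

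The promoters of the genes were read from RefSeq (GRCm38.p6, the mm10 assembly), 250 bases before each annotated start. All 6 genes matched, with 7 windows because *Tnfaip3* has a pair of starts. For *Tnip1*, *Birc3*, *Traf1* and *Cyld* the start used for the window lies inside the gene coordinates given below. These windows therefore overlap the gene as placed there. Those of *Tnfaip3*, *Tnip1* and *Tnip3*, the A20 and ABIN genes, are shown, and each holds a match to the κB consensus, the binding sequence of NF-κB. Capitals mark the match as it reads on the strand of the gene, and both strands were searched.

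*Tnfaip3*, chr10:19015411-19015660, minus strand: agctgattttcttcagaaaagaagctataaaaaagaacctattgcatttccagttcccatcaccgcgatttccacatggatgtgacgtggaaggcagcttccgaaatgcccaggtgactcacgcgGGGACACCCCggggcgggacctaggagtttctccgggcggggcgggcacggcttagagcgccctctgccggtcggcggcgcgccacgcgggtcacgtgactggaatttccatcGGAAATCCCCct

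*Tnip1*, chr11:54962941-54963190, minus strand: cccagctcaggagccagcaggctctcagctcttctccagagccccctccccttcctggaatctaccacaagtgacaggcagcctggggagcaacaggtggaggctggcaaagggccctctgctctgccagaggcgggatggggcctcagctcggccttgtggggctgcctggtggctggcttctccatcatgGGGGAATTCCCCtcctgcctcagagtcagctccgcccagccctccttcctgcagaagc

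*Tnip3*, chr6:65590148-65590397, plus strand: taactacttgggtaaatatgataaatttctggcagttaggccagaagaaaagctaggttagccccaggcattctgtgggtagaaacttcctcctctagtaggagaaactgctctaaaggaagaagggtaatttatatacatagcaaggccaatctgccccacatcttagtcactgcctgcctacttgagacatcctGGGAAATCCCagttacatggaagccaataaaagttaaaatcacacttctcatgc

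The *Tnfaip3* window holds GGGACACCCC 125 to 116 bases before the start and, on the other strand, GGGGATTTCC 12 to 3 bases before it, and the *Tnip1* window overlapping matches to GGGGAATTCC and GGGAATTCCC on both strands, 58 to 47 bases before its start. In *Tnip3* the match was GGGAAATCCC, 54 to 45 bases before the start, and in *Cyld* GGGACTTTCC on the other strand, 155 to 146 bases before it. The *Cyld* distance is counted from the start used for its window. That match, at 88696873 to 88696882 on chromosome 8, spans the first base of the gene coordinates given below. The windows of *Birc3* and *Traf1* and the second window of *Tnfaip3* held no match. Of all 32851 windows of this length, 7.25% held a match to the κB consensus, against 4 of the 7. The AP-1 motif TGANTCA was found in 1 of the 7 windows, as TGACTCA in that of *Tnfaip3*, and in 6.75% of all, and the CArG box of SRF in 0 of the 7 and in 1.47% of all. A match is a description of the letters in these windows and not a measured site.

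In WT cells LPS raised the A20 and ABIN genes, *Birc3* and *Traf1* and hardly moved *Cyld*. At 0.5 h, 2 of the 6 genes had risen, *Tnfaip3* and *Birc3*, where 11.6% of all 11884 genes tested passed in either direction (limma, Benjamini-Hochberg adjusted p below 0.05). At 1 h, 5 of the 6 had risen, where 46.8% of all genes passed in either direction and 2832 were higher. At 2 h all 6 had risen, where 71.5% passed in either direction and 4122 were higher. From 0.5 to 1 h the same test passed for 5 of the 6, all higher (40.3% of all genes), and from 1 to 2 h for 4, all higher (65.3% of all genes). The median difference of the 6 from unstimulated cells was 0.18, 1.84 and 2.68 at 0.5, 1 and 2 h, where the median of all genes lay at -0.0043, 0.00018 and -0.018.

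**Figure D1:**
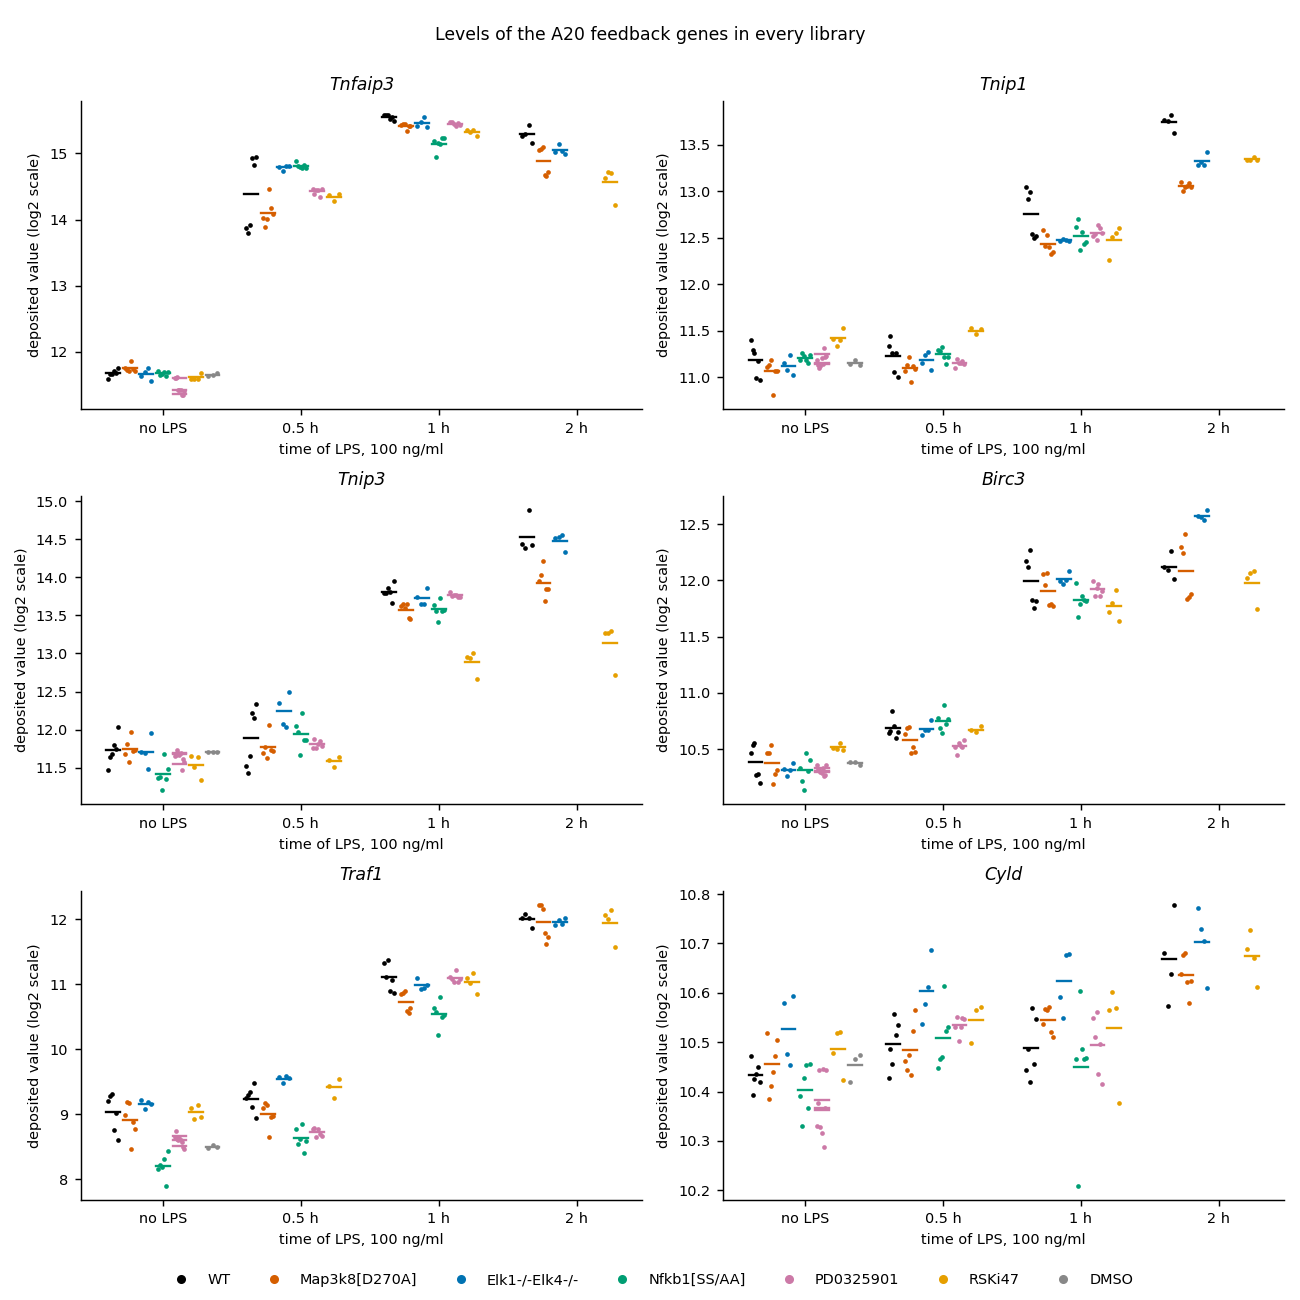
Deposited values on the log2 scale of the 6 genes in every library (points) with the mean of each group (bars), by time of LPS on the x axis and by genotype or inhibitor in colour. *Tnfaip3* is at 13.80 or above in every library with LPS, while the group means of *Cyld* stay between 10.36 and 10.70.

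*Tnfaip3* (A20, chromosome 10 from 19000910 to 19015410 on the minus strand of GRCm38.p6) had the widest range of the 6 and was up at 0.5 h. The 6 unstimulated WT libraries ran from 11.59 through a median of 11.67 to 11.76 (deposited log2 values). At 0.5 h they ran from 13.80 through a median of 14.37 to 14.94, at 1 h from 15.50 through a median of 15.57 to 15.59, and the 4 libraries at 2 h were at 15.16, 15.27, 15.30 and 15.43. All WT libraries with LPS lay above all those without. The difference from unstimulated cells was 2.70 ± 0.12 (SE, adjusted p = 2.58e-26) at 0.5 h, 3.88 ± 0.12 (SE, adjusted p = 2.28e-34) at 1 h and 3.61 ± 0.13 (SE, adjusted p = 4.77e-31) at 2 h. From 1 to 2 h the mean moved by -0.27 ± 0.13 (SE, adjusted p = 0.0712), which did not pass the test, but did after quantile normalisation, at -0.52 (adjusted p = 0.000194), and with either WT set, at -0.25 (adjusted p = 0.0168) and -0.37 (adjusted p = 0.0213). It did not pass with the WT replicate number as a block, at -0.18 (adjusted p = 0.234).

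At 0.5 h the WT libraries of *Tnfaip3* did not form one group. Replicates 4 to 6 stood at 13.80 to 13.92 and replicates 7 to 9 at 14.82 to 14.94, whereas without LPS they were at 11.59 to 11.67 and 11.68 to 11.76 and at 1 h at 15.59 to 15.59 and 15.50 to 15.55. The sets did not overlap at any of these times, but the gap was wide only at 0.5 h, where the second set was the higher. In *Map3k8*[D270A] cells the values at 0.5 h were 13.89 to 14.02 in replicates 1 to 3 and 14.09 to 14.46 in replicates 4 to 6. The difference of *Map3k8*[D270A] from WT at 0.5 h, -0.28 ± 0.12 (SE, adjusted p = 0.329) over all libraries, was 0.11 (adjusted p = 0.174) with the first WT set and -0.66 (adjusted p = 1.31e-05) with the second. The call at this time depended on the set, and the difference between the sets was not tested.

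At 2 h *Tnfaip3* was lower in *Map3k8*[D270A] than in WT cells. The 6 mutant libraries ran from 14.66 through a median of 14.88 to 15.10, below all 4 WT libraries, and the difference was -0.41 ± 0.13 (SE, adjusted p = 0.0152). It was -0.26 (adjusted p = 6.69e-05) with the first WT set and -0.47 (adjusted p = 0.00506) with the second, but did not pass without WT replicate 6 (-0.36, adjusted p = 0.0579) or after quantile normalisation, at -0.29 (adjusted p = 0.0674). Without LPS and at 1 h the differences were 0.074 ± 0.12 (SE, adjusted p = 0.889) and -0.14 ± 0.12 (SE, adjusted p = 0.542). At 1 h all 6 mutant libraries (15.34 to 15.45) lay below all 6 WT libraries (15.50 to 15.59), and the difference was -0.15 (adjusted p = 0.0205) within the first set and -0.14 (adjusted p = 0.322) within the second. The LPS response at 2 h differed from that of WT by -0.48 ± 0.18 (SE, adjusted p = 0.0538). That difference did pass within each set, at -0.35 (adjusted p = 0.000196) and -0.53 (adjusted p = 0.0149), and without any 1 of WT replicates 7 and 9 and *Map3k8*[D270A] replicate 3 (-0.54 to -0.50, adjusted p from 0.0328 to 0.0471). It also passed with a stricter filter (adjusted p = 0.0498), with centred libraries (adjusted p = 0.0472), in a fit over all libraries (adjusted p = 0.00752) and with the replicate number of each arm as a block, at -0.57 (adjusted p = 0.0164).

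In the other arms the *Tnfaip3* difference at 0.5 h depended on the set of WT libraries. The 4 *Elk1*-/-*Elk4*-/- libraries at 0.5 h were at 14.73, 14.79, 14.81 and 14.82, and the 6 *Nfkb1*[SS/AA] libraries ran from 14.78 through a median of 14.80 to 14.89. Both groups lay above the first WT set and close to or within the second. The differences from all WT libraries, 0.41 ± 0.13 (SE, adjusted p = 0.0104) and 0.43 ± 0.093 (SE, adjusted p = 0.000121), passed the test. With the first WT set they were 0.92 (adjusted p = 1.65e-11) and 0.95 (adjusted p = 2.02e-20), and with the second -0.11 (adjusted p = 0.349) and -0.087 (adjusted p = 0.365). The *Elk1*-/-*Elk4*-/- call was also lost without any 1 of WT replicates 4, 5 and 6 (0.29 to 0.31, adjusted p from 0.0542 to 0.0658). For PD0325901 (14.33 through a median of 14.45 to 14.47) and RSKi47 (14.29, 14.36 and 14.38) the differences over all WT libraries, 0.043 ± 0.093 (SE, adjusted p = 0.761) and -0.038 ± 0.11 (SE, adjusted p = 0.806), did not pass, while each passed as higher with the first WT set, at 0.56 (adjusted p = 4.31e-10) and 0.48 (adjusted p = 7.39e-07), and as lower with the second, at -0.47 (adjusted p = 1.09e-07) and -0.56 (adjusted p = 2.17e-08). No direction is therefore given for *Tnfaip3* at 0.5 h in any of these arms.

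At 1 and 2 h the direction of *Tnfaip3* was the same with both WT sets. The 6 *Nfkb1*[SS/AA] libraries at 1 h ran from 14.94 through a median of 15.18 to 15.24, all below the WT libraries (15.50 to 15.59), and the difference was -0.41 ± 0.093 (SE, adjusted p = 0.000182). With the first WT set it was -0.44 (adjusted p = 2.44e-07) and with the second -0.38 (adjusted p = 7.40e-06). The LPS response of these cells at 1 h was lower than that of WT by the same test, with a difference of -0.40 ± 0.13 (SE, adjusted p = 0.0486). Against the first WT set it was -0.47 (adjusted p = 0.000352), and against the second -0.33 (adjusted p = 0.0452). It did not pass without any 1 of WT replicates 4, 5, 6 and 8 and *Nfkb1*[SS/AA] replicates 1, 2, 3, 4 and 6 (-0.41 to -0.36, adjusted p from 0.0558 to 0.160), with no filter on low values (adjusted p = 0.0726), with libraries centred on their medians (adjusted p = 0.0623) or when *Nfkb1*[SS/AA], WT and DMSO libraries alone were fitted (adjusted p = 0.268). For *Elk1*-/-*Elk4*-/- cells the difference at 1 h was -0.092 ± 0.13 (SE, adjusted p = 0.573) and at 2 h -0.24 ± 0.14 (SE, adjusted p = 0.168), neither of which passed over all WT libraries. The value at 2 h was -0.28 (adjusted p = 0.00581) with the first WT set and -0.11 (adjusted p = 0.591) with the second. With PD0325901 the 1 h libraries ran from 15.42 through a median of 15.45 to 15.47, all below the WT libraries, a difference of -0.11 ± 0.093 (SE, adjusted p = 0.390) that did not pass with either WT set (-0.14 and -0.075).

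With RSKi47 the late level of *Tnfaip3* was lower. At 2 h its 4 libraries were at 14.22, 14.63, 14.71 and 14.72, all below the WT libraries, a difference of -0.72 ± 0.11 (SE, adjusted p = 6.76e-08). It was -0.76 (adjusted p = 9.54e-15) with the first WT set and -0.59 (adjusted p = 1.38e-05) with the second. At 1 h they were at 15.26, 15.32, 15.35 and 15.36, also below all WT libraries, and the difference was -0.23 ± 0.10 (SE, adjusted p = 0.0497). Against the first WT set it was -0.26 (adjusted p = 0.00233), and against the second -0.20 (adjusted p = 0.0204). The test was no longer passed without any 1 of WT replicates 4, 6 and 8 and RSKi47 replicates 1, 2, 3 and 4 (-0.25 to -0.21, adjusted p from 0.0510 to 0.103). It was also lost with no filter on low values (adjusted p = 0.0694) and when RSKi47, WT and DMSO libraries alone were fitted (adjusted p = 0.207). The response at 2 h was lower than in WT, with a difference of -0.65 ± 0.15 (SE, adjusted p = 0.000691). With WT replicates 4 to 6 it was -0.74 (adjusted p = 5.37e-08), and with 7 to 9 -0.48 (adjusted p = 0.0138). Without LPS the difference was -0.065 ± 0.10 (SE, adjusted p = 0.617). The fibroblast and neutrophil sums of these libraries are given above, and their part in the result was not tested.

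**Figure D2:**
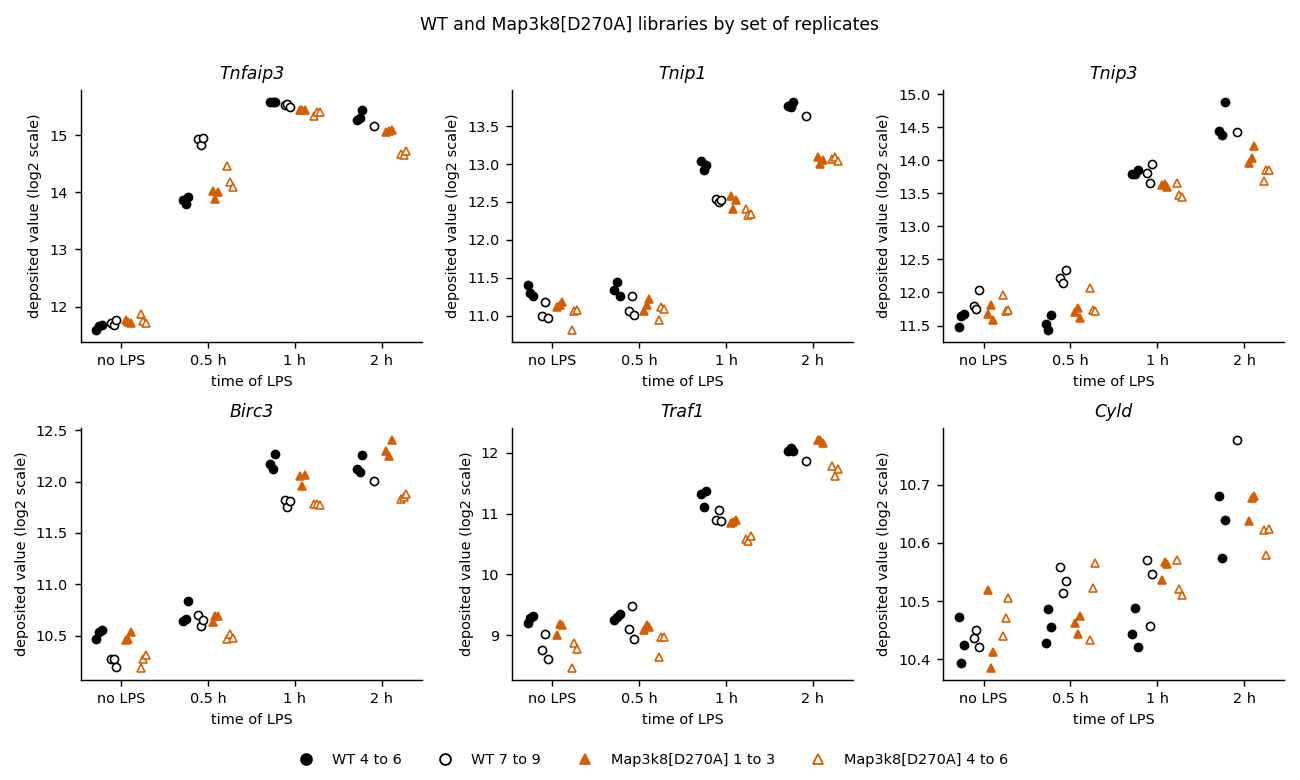
Deposited values (log2 scale) of the 6 genes in WT (circles) and *Map3k8*[D270A] libraries (triangles) by time of LPS. Filled symbols are WT replicates 4 to 6 and *Map3k8*[D270A] replicates 1 to 3, open symbols WT replicates 7 to 9 and *Map3k8*[D270A] replicates 4 to 6. *Tnfaip3* at 0.5 h separates the WT sets (13.80 to 13.92 and 14.82 to 14.94), and *Tnip1* at 2 h separates the genotypes in both sets.

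*Tnip1* (ABIN-1, chromosome 11 from 54910787 to 54962956 on the minus strand of GRCm38.p6) rose later. Unstimulated WT libraries ran from 10.97 through a median of 11.22 to 11.40 and those at 0.5 h from 11.00 through a median of 11.26 to 11.44, which overlapped. At 1 h they ran from 12.49 through a median of 12.73 to 13.04 and at 2 h they were at 13.63, 13.76, 13.77 and 13.82, so that each later time lay above the one before it. The differences from unstimulated cells were 0.044 ± 0.076 (SE, adjusted p = 0.815), 1.57 ± 0.076 (SE, adjusted p = 3.55e-25) and 2.56 ± 0.085 (SE, adjusted p = 5.30e-33) at 0.5, 1 and 2 h, and the step from 1 to 2 h was 0.99 ± 0.085 (SE, adjusted p = 2.73e-15).

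Of the 6 genes *Tnip1* was the one whose late level differed from WT, in the same direction, in *Map3k8*[D270A], *Elk1*-/-*Elk4*-/- and RSKi47-treated cells alike. The 6 *Map3k8*[D270A] libraries at 2 h ran from 13.01 through a median of 13.05 to 13.10, against 13.63 to 13.82 in WT, with no overlap. The difference was -0.69 ± 0.085 (SE, adjusted p = 4.70e-09). For the first WT set it was -0.73 (adjusted p = 4.26e-09), and for the second -0.56 (adjusted p = 0.00258). At 1 h, where the groups overlapped, it was -0.32 ± 0.076 (SE, adjusted p = 0.00286). Set by set it was -0.48 (adjusted p = 4.83e-06) with the first and -0.16 (adjusted p = 0.286) with the second. The response at 2 h was lower than in WT, with a difference of -0.56 ± 0.11 (SE, adjusted p = 0.000217). In the first WT set it was -0.55 (adjusted p = 2.36e-05), and in the second -0.50 (adjusted p = 0.0324). Without LPS and at 0.5 h the differences were -0.12 ± 0.076 (SE, adjusted p = 0.557) and -0.13 ± 0.076 (SE, adjusted p = 0.524).

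In *Elk1*-/-*Elk4*-/- cells *Tnip1* stood at 12.46, 12.47, 12.48 and 12.49 at 1 h and at 13.28, 13.28, 13.31 and 13.43 at 2 h, each time below all WT libraries. The difference was -0.28 ± 0.085 (SE, adjusted p = 0.00527) at 1 h. The first WT set gave -0.51 (adjusted p = 2.10e-08), and the second gave -0.044 (adjusted p = 0.633). At 2 h it was -0.42 ± 0.093 (SE, adjusted p = 0.000172). Against the first WT set it was -0.46 (adjusted p = 1.48e-07), and against the second -0.30 (adjusted p = 0.0229). The response at 2 h was lower, with a difference of -0.35 ± 0.13 (SE, adjusted p = 0.0429). It was -0.26 (adjusted p = 0.0445) with the first WT set and -0.37 (adjusted p = 0.0616) with the second. This call was lost without any 1 of WT replicates 6 and 9 and *Elk1*-/-*Elk4*-/- replicates 1, 2 and 3 (-0.36 to -0.30, adjusted p from 0.0600 to 0.153), with no filter on low values (adjusted p = 0.0616) and after quantile normalisation, at -0.31 (adjusted p = 0.0948). All 5 neutrophil markers tested were higher in these libraries at both times, and their part in the result was not tested.

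With RSKi47 *Tnip1* stood above WT before and early after LPS and below it later. Its libraries were at 11.33, 11.40, 11.41 and 11.53 without LPS and at 11.46, 11.51 and 11.53 at 0.5 h, which was higher than WT by 0.24 ± 0.070 (SE, adjusted p = 0.00323) and 0.27 ± 0.077 (SE, adjusted p = 0.00225). With the first WT set these were 0.099 (adjusted p = 0.168) and 0.15 (adjusted p = 0.0444), and with the second 0.37 (adjusted p = 7.50e-07) and 0.39 (adjusted p = 1.36e-06). At 1 h they were at 12.26, 12.51, 12.55 and 12.60 and at 2 h at 13.33, 13.34, 13.34 and 13.37, below WT with differences of -0.27 ± 0.070 (SE, adjusted p = 0.000734) and -0.40 ± 0.077 (SE, adjusted p = 6.99e-06). The value at 1 h was -0.50 (adjusted p = 5.12e-11) with the first WT set and -0.039 (adjusted p = 0.639) with the second, and at 2 h -0.44 (adjusted p = 2.80e-09) with the first WT set and -0.28 (adjusted p = 0.0116) with the second. The LPS response was lower than in WT at both times, with differences of -0.51 ± 0.099 (SE, adjusted p = 0.000192) at 1 h and -0.63 ± 0.10 (SE, adjusted p = 1.09e-06) at 2 h, and each passed with either WT set (-0.60 and -0.41 at 1 h, -0.54 and -0.66 at 2 h).

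In *Nfkb1*[SS/AA] cells at 1 h *Tnip1* ran from 12.37 through a median of 12.51 to 12.70, overlapping WT, with a difference of -0.23 ± 0.063 (SE, adjusted p = 0.00195). With PD0325901 it ran from 12.48 through a median of 12.54 to 12.64, a difference of -0.19 ± 0.063 (SE, adjusted p = 0.0108). Both rested on the first WT set, with which they were -0.46 (adjusted p = 8.67e-11) and -0.43 (adjusted p = 1.54e-09), while with the second they were 0.0042 (adjusted p = 0.963) and 0.038 (adjusted p = 0.668). The PD0325901 call was also lost without any 1 of WT replicates 4 and 6 (-0.15 to -0.14, adjusted p from 0.0718 to 0.0833), and when libraries whose numbers lay 3 apart were averaged, at -0.19 (adjusted p = 0.0635). The response of *Nfkb1*[SS/AA] cells at 1 h differed from that of WT by -0.25 ± 0.089 (SE, adjusted p = 0.0761), and with the replicate number as a block by -0.25 (adjusted p = 0.00347). That of PD0325901-treated cells differed by -0.26 ± 0.099 (SE, adjusted p = 0.153). Unstimulated and 0.5 h *Nfkb1*[SS/AA] libraries had means of 11.21 ± 0.042 (SD, n = 6) and 11.25 ± 0.065 (SD, n = 6).

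*Tnip3* (ABIN-3, chromosome 6 from 65590398 to 65634040 on the plus strand of GRCm38.p6) followed a course like that of *Tnip1* in WT cells and was the gene furthest below WT with RSKi47. WT libraries ran from 11.47 through a median of 11.71 to 12.04 without LPS, from 11.43 through a median of 11.90 to 12.34 at 0.5 h and from 13.66 through a median of 13.80 to 13.95 at 1 h, and were at 14.38, 14.43, 14.44 and 14.89 at 2 h. The groups at 1 and 2 h lay above all earlier libraries. The differences from unstimulated cells were 0.16 ± 0.11 (SE, adjusted p = 0.423), 2.08 ± 0.11 (SE, adjusted p = 1.80e-23) and 2.80 ± 0.12 (SE, adjusted p = 1.85e-27), and the step from 1 to 2 h was 0.73 ± 0.12 (SE, adjusted p = 8.85e-07). At 0.5 h the second WT set alone passed, at 0.38 (adjusted p = 0.0465), against -0.059 (adjusted p = 0.916) in the first.

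With RSKi47 the 4 libraries of *Tnip3* at 1 h were at 12.67, 12.94, 12.96 and 13.00 and at 2 h at 12.71, 13.26, 13.27 and 13.30, both below every WT library of the same time. The differences were -0.91 ± 0.11 (SE, adjusted p = 6.55e-12) and -1.40 ± 0.12 (SE, adjusted p = 1.71e-18). Neither WT set changed this: the values were -0.92 and -0.91 at 1 h, and -1.43 and -1.29 at 2 h, all past the test. Replicate 4 at 2 h, at 12.71, lay below the other 3, and without it the difference at 2 h was -1.25 (adjusted p = 1.76e-15). The LPS response was lower than in WT, with differences of -0.72 ± 0.15 (SE, adjusted p = 0.000549) at 1 h and -1.20 ± 0.16 (SE, adjusted p = 2.75e-09) at 2 h. At 1 h it was -0.86 (adjusted p = 2.05e-05) with the first WT set and -0.59 (adjusted p = 0.0190) with the second, and at 2 h it was -1.37 (adjusted p = 1.26e-11) with the first WT set and -0.97 (adjusted p = 0.000177) with the second. Without LPS the libraries were at 11.34, 11.51, 11.64 and 11.65, a difference of -0.19 ± 0.11 (SE, adjusted p = 0.123). It passed after quantile normalisation, at -0.24 (adjusted p = 0.0323), and with the second WT set, at -0.33 (adjusted p = 0.00845), but not with the first, at -0.062 (adjusted p = 0.652). At 0.5 h they were at 11.51, 11.60 and 11.64, a difference of -0.30 ± 0.12 (SE, adjusted p = 0.0268). With WT replicates 4 to 6 it was 0.046 (adjusted p = 0.765), and with 7 to 9 -0.65 (adjusted p = 1.68e-06). This did not pass without any 1 of WT replicates 7, 8 and 9 and RSKi47 replicates 1 and 2 (-0.31 to -0.21, adjusted p from 0.0641 to 0.118), or when RSKi47, WT and DMSO libraries alone were fitted (adjusted p = 0.104).

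Kinase-inactive TPL-2 also went with less *Tnip3* at 2 h. The 6 *Map3k8*[D270A] libraries ran from 13.69 through a median of 13.90 to 14.21, below all WT libraries, and the difference was -0.60 ± 0.12 (SE, adjusted p = 0.000128). For the first WT set it was -0.50 (adjusted p = 0.000577), and for the second -0.63 (adjusted p = 0.0116). The response at 2 h was lower, with a difference of -0.62 ± 0.17 (SE, adjusted p = 0.00549). Set by set it was -0.59 (adjusted p = 0.00402) with the first and -0.58 (adjusted p = 0.0734) with the second. That call was lost without WT replicate 6 (-0.49, adjusted p = 0.0561). At 1 h the libraries ran from 13.45 through a median of 13.61 to 13.65, a difference of -0.23 ± 0.11 (SE, adjusted p = 0.193), and earlier times differed by 0.020 ± 0.11 (SE, adjusted p = 0.971) without LPS and -0.12 ± 0.11 (SE, adjusted p = 0.736) at 0.5 h.

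At 2 h *Elk1*-/-*Elk4*-/- libraries of *Tnip3*, at 14.33, 14.52, 14.53 and 14.55, overlapped WT, with a difference of -0.052 ± 0.13 (SE, adjusted p = 0.771), and an interval of -0.32 to 0.22 (95%). At 0.5 h they were at 12.03, 12.07, 12.36 and 12.50, a difference of 0.35 ± 0.12 (SE, adjusted p = 0.0172). The first WT set gave 0.70 (adjusted p = 3.71e-06), and the second gave 0.0032 (adjusted p = 0.985). It no longer passed without any 1 of WT replicates 4 and 5 and *Elk1*-/-*Elk4*-/- replicates 1 and 4 (0.26 to 0.31, adjusted p from 0.0667 to 0.107). The lowest mean of any group was that of unstimulated *Nfkb1*[SS/AA] cells, from 11.20 through a median of 11.37 to 11.68, a difference from WT of -0.32 ± 0.096 (SE, adjusted p = 0.00660). In the first WT set it was -0.19 (adjusted p = 0.164), and in the second -0.45 (adjusted p = 0.000188). At 1 h they ran from 13.41 through a median of 13.56 to 13.73, a difference of -0.23 ± 0.096 (SE, adjusted p = 0.0448) that passed with neither WT set alone (-0.23, adjusted p = 0.0571, and -0.23, adjusted p = 0.0580). The call was lost without any 1 of WT replicates 6, 7 and 9 and *Nfkb1*[SS/AA] replicates 2, 3, 5 and 6 (-0.23 to -0.20, adjusted p from 0.0576 to 0.0979), and with no filter, centred libraries or the smaller fit of these arms (adjusted p = 0.0644, 0.0549 and 0.119). At 0.5 h it was 0.40 (adjusted p = 0.00130) with the first WT set and -0.30 (adjusted p = 0.0140) with the second, against 0.049 ± 0.096 (SE, adjusted p = 0.735) over all WT libraries, so no direction is given. With PD0325901 *Tnip3* differed from WT by -0.043 ± 0.096 (SE, adjusted p = 0.759) at 1 h. At 0.5 h the PD0325901 difference over all WT libraries was -0.079 ± 0.096 (SE, adjusted p = 0.569), and it was 0.27 (adjusted p = 0.0298) with the first WT set and -0.43 (adjusted p = 0.000628) with the second, so no direction is given.

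*Birc3* (cIAP2, chromosome 9 from 7847468 to 7873205 on the minus strand of GRCm38.p6) rose early by a small step and then reached a plateau. WT libraries ran from 10.20 through a median of 10.37 to 10.55 without LPS, from 10.60 through a median of 10.65 to 10.84 at 0.5 h and from 11.76 through a median of 11.97 to 12.27 at 1 h, and were at 12.01, 12.09, 12.12 and 12.26 at 2 h. The differences from unstimulated cells were 0.30 ± 0.081 (SE, adjusted p = 0.00791), 1.61 ± 0.081 (SE, adjusted p = 2.23e-24) and 1.74 ± 0.091 (SE, adjusted p = 4.03e-24), and the step from 1 to 2 h, 0.13 ± 0.091 (SE, adjusted p = 0.215), did not pass. At 0.5 h the rise was 0.20 (adjusted p = 0.383) with the first WT set and 0.40 (adjusted p = 0.00711) with the second.

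*Birc3* stood above WT at 2 h in *Elk1*-/-*Elk4*-/- cells. The 4 libraries were at 12.54, 12.56, 12.57 and 12.63, above all 4 WT libraries, and the difference was 0.45 ± 0.10 (SE, adjusted p = 0.000146). Against the first WT set it was 0.42 (adjusted p = 0.000345), and against the second 0.57 (adjusted p = 0.00229). The response at 2 h was higher by 0.52 ± 0.13 (SE, adjusted p = 0.00424). It was 0.62 (adjusted p = 0.000973) with the first WT set and 0.50 (adjusted p = 0.0723) with the second. At 1 h these cells were at 11.96, 11.99, 12.00 and 12.08, within the WT range, a difference of 0.017 ± 0.091 (SE, adjusted p = 0.889). As for *Tnip1*, the neutrophil markers were higher in the same libraries, and their part was not tested.

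In *Map3k8*[D270A] cells *Birc3* ran from 11.77 through a median of 11.87 to 12.06 at 1 h and from 11.83 through a median of 12.06 to 12.41 at 2 h, overlapping WT at both. The differences were -0.091 ± 0.081 (SE, adjusted p = 0.581) and -0.034 ± 0.091 (SE, adjusted p = 0.825). At 2 h the sets went in opposite directions, with 0.16 (adjusted p = 0.0315) with the first WT set and -0.15 (adjusted p = 0.0858) with the second. RSKi47 libraries at 1 h, 11.64, 11.72, 11.80 and 11.92, differed from WT by -0.22 ± 0.077 (SE, adjusted p = 0.0110). With WT replicates 4 to 6 it was -0.42 (adjusted p = 1.47e-05), and with 7 to 9 -0.028 (adjusted p = 0.794). The test was no longer passed without any 1 of WT replicate 6 and RSKi47 replicate 4 (-0.18 to -0.17, adjusted p from 0.0580 to 0.0600). Their response at 1 h differed by -0.35 ± 0.11 (SE, adjusted p = 0.0316). For the first WT set it was -0.41 (adjusted p = 0.0115), and for the second -0.29 (adjusted p = 0.296). This did not pass without any 1 of WT replicates 4 and 6 and RSKi47 replicates 1, 2 and 4 (-0.37 to -0.32, adjusted p from 0.0561 to 0.112), or in the smaller fit (adjusted p = 0.0863). At 2 h the RSKi47 difference was -0.14 ± 0.084 (SE, adjusted p = 0.148). *Nfkb1*[SS/AA] libraries at 1 h ran from 11.67 through a median of 11.82 to 11.98, a difference of -0.17 ± 0.068 (SE, adjusted p = 0.0398). Set by set it was -0.36 (adjusted p = 6.95e-05) with the first and 0.026 (adjusted p = 0.812) with the second. That call was lost without any 1 of WT replicates 4, 5 and 6 and *Nfkb1*[SS/AA] replicates 2, 3, 5 and 6 (-0.17 to -0.11, adjusted p from 0.0567 to 0.184), and with no filter, centred libraries or the smaller fit (adjusted p = 0.0564, 0.0536 and 0.0680). With PD0325901 the differences were -0.16 ± 0.068 (SE, adjusted p = 0.0698) at 0.5 h and -0.072 ± 0.068 (SE, adjusted p = 0.433) at 1 h. That at 0.5 h did pass after quantile normalisation, at -0.17 (adjusted p = 0.0349), in the smaller fit (adjusted p = 0.0485), without WT replicate 8 (-0.18, adjusted p = 0.0486) and with the first WT set, at -0.19 (adjusted p = 0.0449), but not with the second, at -0.13 (adjusted p = 0.233). At 1 h the PD0325901 difference was -0.27 (adjusted p = 0.00371) with the first WT set. None of these *Birc3* differences at 1 h passed with the second WT set.

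*Traf1* (TRAF1, chromosome 2 from 34941750 to 34961812 on the minus strand of GRCm38.p6) had the widest range of the 6 genes across groups after *Tnfaip3*, 3.80 between the lowest and the highest group mean. WT libraries ran from 8.61 through a median of 9.11 to 9.31 without LPS, from 8.94 through a median of 9.27 to 9.48 at 0.5 h and from 10.87 through a median of 11.09 to 11.38 at 1 h, and were at 11.87, 12.03, 12.03 and 12.08 at 2 h. The groups of 1 and 2 h did not overlap each other or the earlier ones. The differences from unstimulated cells were 0.20 ± 0.11 (SE, adjusted p = 0.263), 2.07 ± 0.11 (SE, adjusted p = 3.38e-23) and 2.97 ± 0.12 (SE, adjusted p = 2.54e-28), with a step of 0.89 ± 0.12 (SE, adjusted p = 1.03e-08) from 1 to 2 h. WT libraries with the same replicate number deviated together, and with that number as a block the difference at 0.5 h passed, at 0.20 (adjusted p = 0.0106).

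*Nfkb1*[SS/AA] cells had less *Traf1* at each of their 3 times. Unstimulated libraries ran from 7.90 through a median of 8.20 to 8.43, below all WT libraries, with a difference of -0.83 ± 0.099 (SE, adjusted p = 2.85e-11). In the first WT set it was -1.07 (adjusted p = 2.24e-13), and in the second -0.60 (adjusted p = 2.48e-05). At 0.5 h they ran from 8.41 through a median of 8.60 to 8.86 and at 1 h from 10.22 through a median of 10.55 to 10.80, both below the WT range. The differences were -0.61 ± 0.099 (SE, adjusted p = 4.42e-07) and -0.56 ± 0.099 (SE, adjusted p = 1.35e-06), and each passed with both WT sets (-0.66 and -0.55 at 0.5 h, -0.73 and -0.40 at 1 h). The LPS response differed from that of WT by 0.27 ± 0.14 (SE, adjusted p = 0.310) at 1 h, or 0.27 (adjusted p = 0.0181) with the replicate number as a block. DMSO-treated WT cells of a further experiment, at 8.47, 8.50 and 8.53, were also below untreated WT cells, with a difference of -0.53 ± 0.12 (SE, adjusted p = 0.000586). The first WT set gave -0.76 (adjusted p = 1.78e-06), and the second gave -0.29 (adjusted p = 0.122). These cells differ from WT in solvent and in experiment, which cannot be told apart.

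With PD0325901 and LPS, *Traf1* ran from 8.65 through a median of 8.73 to 8.79 at 0.5 h, below WT with a difference of -0.51 ± 0.099 (SE, adjusted p = 2.50e-05). Against the first WT set it was -0.57 (adjusted p = 1.92e-05), and against the second -0.45 (adjusted p = 0.00207). DMSO libraries of the same experiment without LPS were lower still, at 8.47 to 8.53, and the difference in response at 0.5 h did not pass. The part of solvent and experiment in this difference from WT was not tested. At 1 h the libraries with PD0325901 ran from 11.03 through a median of 11.08 to 11.22, a difference of -0.014 ± 0.099 (SE, adjusted p = 0.929). PD0325901 alone gave 8.62, 8.66 and 8.74 at 10 min, 8.60, 8.60 and 8.63 at 40 min and 8.46, 8.49 and 8.58 at 70 min, at the lower end of the unstimulated WT range or below it. Against these, the response at 1 h was higher than that of WT by 0.51 ± 0.16 (SE, adjusted p = 0.0437). It was 0.58 (adjusted p = 0.0231) with the first WT set and 0.44 (adjusted p = 0.295) with the second. It was lost without any 1 of WT replicates 4, 5, 6 and 8 and PD0325901 replicates 1, 2, 3, 4 and 6 (0.46 to 0.54, adjusted p from 0.0565 to 0.145), and when libraries 3 apart in number were averaged, at 0.51 (adjusted p = 0.131).

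*Map3k8*[D270A] libraries of *Traf1* at 1 h ran from 10.55 through a median of 10.74 to 10.90, overlapping WT, with a difference of -0.38 ± 0.11 (SE, adjusted p = 0.0209). With WT replicates 4 to 6 it was -0.40 (adjusted p = 5.57e-05), and with 7 to 9 -0.35 (adjusted p = 0.177). It no longer passed without any 1 of WT replicates 4 and 6 and *Map3k8*[D270A] replicates 5 and 6 (-0.36 to -0.32, adjusted p from 0.0504 to 0.0816). At 2 h they ran from 11.62 through a median of 11.97 to 12.22, a difference of -0.045 ± 0.12 (SE, adjusted p = 0.833), and the sets again went apart, with 0.15 (adjusted p = 0.0351) with the first WT set and -0.16 (adjusted p = 0.702) with the second. In *Elk1*-/-*Elk4*-/- cells *Traf1* was at 9.48, 9.55, 9.58 and 9.58 at 0.5 h, a difference of 0.31 ± 0.12 (SE, adjusted p = 0.0360). For the first WT set it was 0.26 (adjusted p = 0.0888), and for the second 0.37 (adjusted p = 0.0377). The call was lost without any 1 of WT replicates 4, 7 and 9 and *Elk1*-/-*Elk4*-/- replicates 1, 2, 3 and 4 (0.26 to 0.34, adjusted p from 0.05 to 0.0856), and with no filter on low values (adjusted p = 0.0541). At 1 and 2 h it differed from WT by -0.12 ± 0.12 (SE, adjusted p = 0.436) and -0.040 ± 0.14 (SE, adjusted p = 0.824). With RSKi47 *Traf1* was at 11.58, 12.00, 12.06 and 12.15 at 2 h, overlapping WT, a difference of -0.052 ± 0.12 (SE, adjusted p = 0.739) with a 95% interval of -0.29 to 0.19.

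*Cyld*, the deubiquitinase gene (chromosome 8 from 88696878 to 88751946 on the plus strand of GRCm38.p6), moved least of the 6. WT libraries ran from 10.39 through a median of 10.43 to 10.47 without LPS, from 10.43 through a median of 10.50 to 10.56 at 0.5 h and from 10.42 through a median of 10.47 to 10.57 at 1 h, and were at 10.57, 10.64, 10.68 and 10.78 at 2 h. The difference at 2 h, 0.23 ± 0.036 (SE, adjusted p = 9.40e-08), was the only one from unstimulated WT cells that passed, and after quantile normalisation it was 0.027 (adjusted p = 0.470). That scaling moved the median of all genes at 2 h to -0.11. *Elk1*-/-*Elk4*-/- libraries were at 10.45, 10.48, 10.58 and 10.59 without LPS, 10.54, 10.58, 10.61 and 10.69 at 0.5 h and 10.55, 10.59, 10.68 and 10.68 at 1 h, overlapping WT at each time. They differed from WT by 0.093 ± 0.036 (SE, adjusted p = 0.0281), 0.11 ± 0.036 (SE, adjusted p = 0.0143) and 0.14 ± 0.036 (SE, adjusted p = 0.00144). Without LPS it was 0.096 (adjusted p = 0.0465) with the first WT set and 0.091 (adjusted p = 0.0750) with the second, and at 0.5 h 0.15 (adjusted p = 0.00324) with the first WT set and 0.068 (adjusted p = 0.215) with the second. At 1 h it was 0.17 (adjusted p = 0.000494) with the first WT set and 0.099 (adjusted p = 0.0486) with the second. The call without LPS was lost without any 1 of WT replicate 5 and *Elk1*-/-*Elk4*-/- replicates 1 and 4 (0.071 to 0.086, adjusted p from 0.0563 to 0.116), and after quantile normalisation, at 0.072 (adjusted p = 0.0713). That at 0.5 h was lost without *Elk1*-/-*Elk4*-/- replicate 4 (0.079, adjusted p = 0.0882). In no other arm did *Cyld* pass over all libraries at any time. In *Map3k8*[D270A] cells it was 0.11 (adjusted p = 0.0429) with the first WT set and 0.0096 (adjusted p = 0.931) with the second at 1 h, and 0.034 (adjusted p = 0.461) with the first WT set and -0.17 (adjusted p = 0.0494) with the second at 2 h.

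Counts of the 6 genes by arm are given beside the share of all genes that passed, in either direction, in the same comparison. In *Map3k8*[D270A] cells none of the 6 passed without LPS (1.44% of all genes, and 0 of the 6 at an unadjusted p below 0.05 in limma) or at 0.5 h (1.37%, with 2 at an unadjusted p below 0.05), 2 were lower at 1 h (9.79%) and 3 lower at 2 h (27.7%). Within the first set 1 was lower at 0.5 h (*Tnip1*), 3 lower and *Cyld* higher at 1 h, and 3 lower with *Birc3* and *Traf1* higher at 2 h. Within the second set 2 were lower at 0.5 h (*Tnfaip3* and *Birc3*), 0 passed at 1 h and 4 were lower at 2 h, the 3 named and *Cyld*. The difference in response passed for none at 0.5 h (0.109%, with 1 unadjusted) and 1 h (2.02%, with 0 unadjusted) and for 2 at 2 h (15.5%). Within the first set the response was lower for *Tnfaip3* and *Tnip1* at 1 h, at -0.24 (adjusted p = 0.0255) and -0.30 (adjusted p = 0.0319), and at 2 h 3 were lower and *Traf1* higher, at 0.31 (adjusted p = 0.00754). Within the second set *Tnfaip3* passed at 0.5 h, at -0.71 (adjusted p = 0.000795), and it and *Tnip1* at 2 h.

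In *Elk1*-/-*Elk4*-/- cells, where about as many genes passed as did not, 1 of the 6 was higher without LPS (51.8% of all genes), 4 were higher at 0.5 h (44.4%), 1 was higher and 1 lower at 1 h (53.4%) and again at 2 h (50.8%). With the second WT set 1 of the 4 at 0.5 h passed, and *Tnfaip3* turned to -0.11 (adjusted p = 0.349). In response, none passed at 0.5 h (0.0589%, with 2 unadjusted) or at 1 h (1.35%, with 0 unadjusted), and 1 was higher and 1 lower at 2 h (16.9%). With the first WT set *Tnfaip3* passed at 0.5 h as higher and with the second it did not, and none passed at 2 h with the second. *Nfkb1*[SS/AA] cells had 2 lower without LPS (32%), 1 higher and 1 lower at 0.5 h (32.3%) and 5 lower at 1 h (42.5%), of which 2 passed with the second WT set. The higher one at 0.5 h was *Tnfaip3*, which with the second WT set turned to -0.087 (adjusted p = 0.365), while *Tnip3* passed there as lower, at -0.30 (adjusted p = 0.0140). Their response differed for none at 0.5 h (0.309%, with 2 unadjusted, and with *Tnfaip3* and *Tnip3* passing as higher with the first WT set) and for 1 at 1 h (6.07%), or for 3 with the replicate number as a block, *Tnip1* lower, *Traf1* higher and *Tnfaip3* lower, at -0.40 (adjusted p = 0.0375). Libraries with the same replicate number deviated together in WT and in *Nfkb1*[SS/AA] cells, which the block takes into account.

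PD0325901 gave 1 lower gene at 0.5 h (29.4%) and 1 at 1 h (35.7%). At 0.5 h 2 were higher (*Tnfaip3* and *Tnip3*) and 3 lower with the first WT set, and at 1 h 2 lower, and with the second 3 were lower at 0.5 h, these 2 and *Traf1*, and 0 at 1 h. In response none passed at 0.5 h (1.49%, with 1 unadjusted) and 1 was higher at 1 h (3.58%). By set, 1 passed at 0.5 h with the first (*Tnfaip3*) and 2 at 1 h, and with the second none. The inhibitor alone for 10 min differed from DMSO of the same experiment in none of the 6 (0% of 11971 genes, and 0 of the 6 and 245 of all genes at an unadjusted p below 0.05 in limma). DMSO against untreated WT cells gave 1 lower gene, *Traf1* (23.6%). RSKi47 gave 1 higher without LPS (53%), 1 higher and 1 lower at 0.5 h (48.2%), 4 lower at 1 h (52.8%) and 3 lower at 2 h (52.1%). Without LPS none passed with the first WT set, and with the second 3 did (*Tnip1* and *Birc3* higher, *Tnip3* lower), while at 1 h 2 were lower with the second. The lower one at 0.5 h was *Tnip3*, at 0.046 (adjusted p = 0.765) with the first WT set. Its response differed for none at 0.5 h (0.0251%, with 0 unadjusted), although *Tnfaip3* passed as higher with the first WT set and as lower with the second, and for 3 at 1 h (5.54%) and 3 at 2 h (21%), all lower. With the replicate number of each arm as a block *Birc3* passed as well at 2 h, at -0.21 (adjusted p = 0.00871). All these comparisons but that of the inhibitor alone with DMSO share the WT libraries, so their values stand side by side and are not independent of each other.

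**Figure D3:**
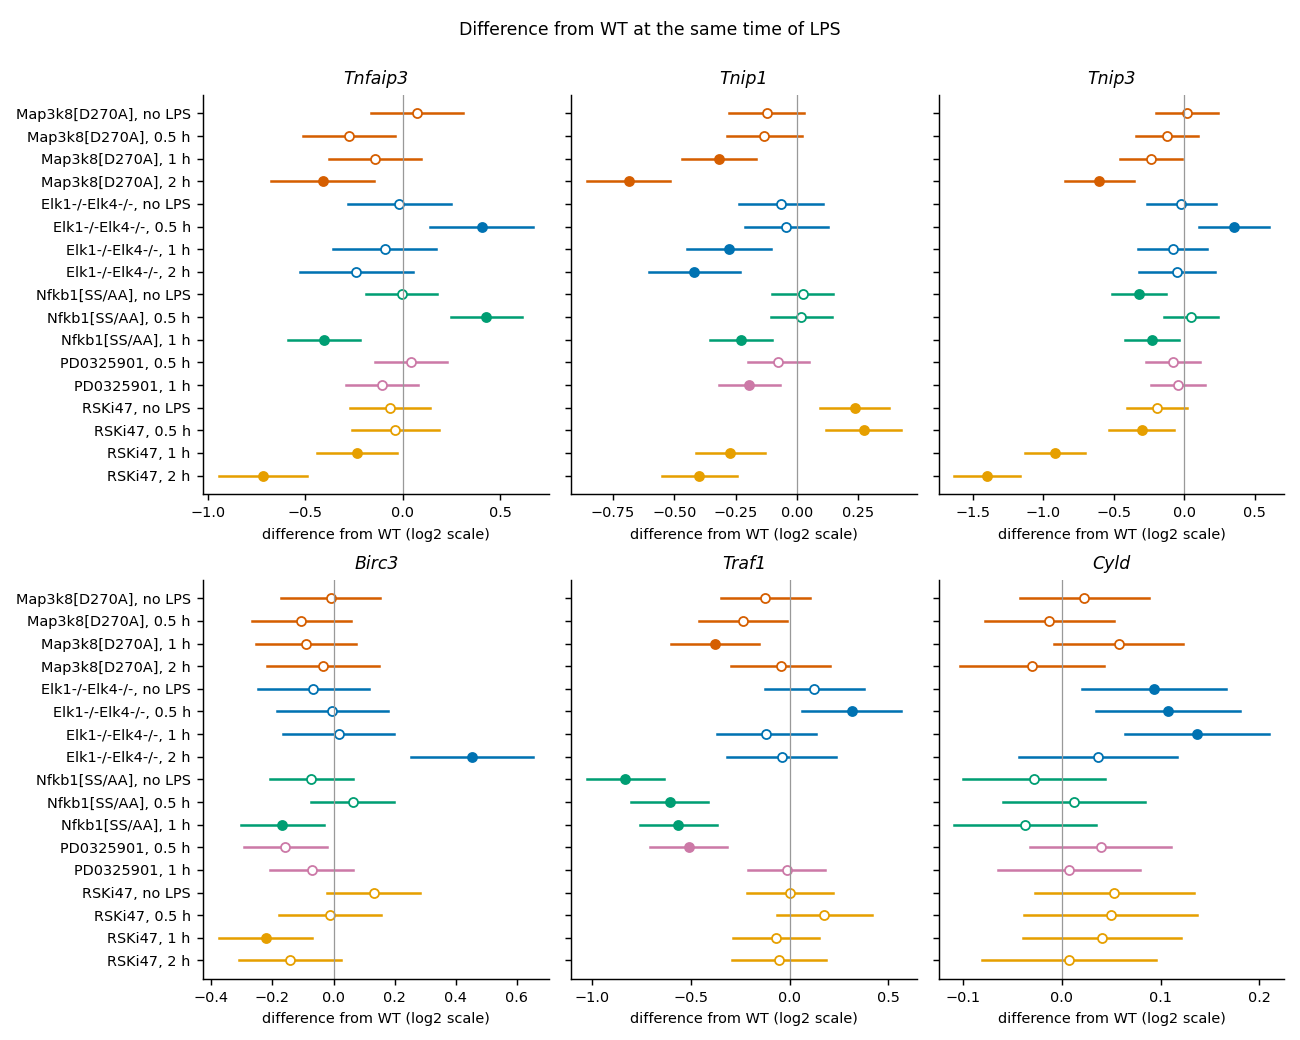
Difference from WT at the same time of LPS (x axis, log2 scale) for each gene and arm, with 95% intervals from limma. Filled points passed at an adjusted p below 0.05. *Tnip3* with RSKi47 reaches -1.40 at 2 h and *Traf1* in unstimulated *Nfkb1*[SS/AA] cells -0.83, while the intervals of *Cyld* stay between -0.11 and 0.21.

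**Figure D4:**
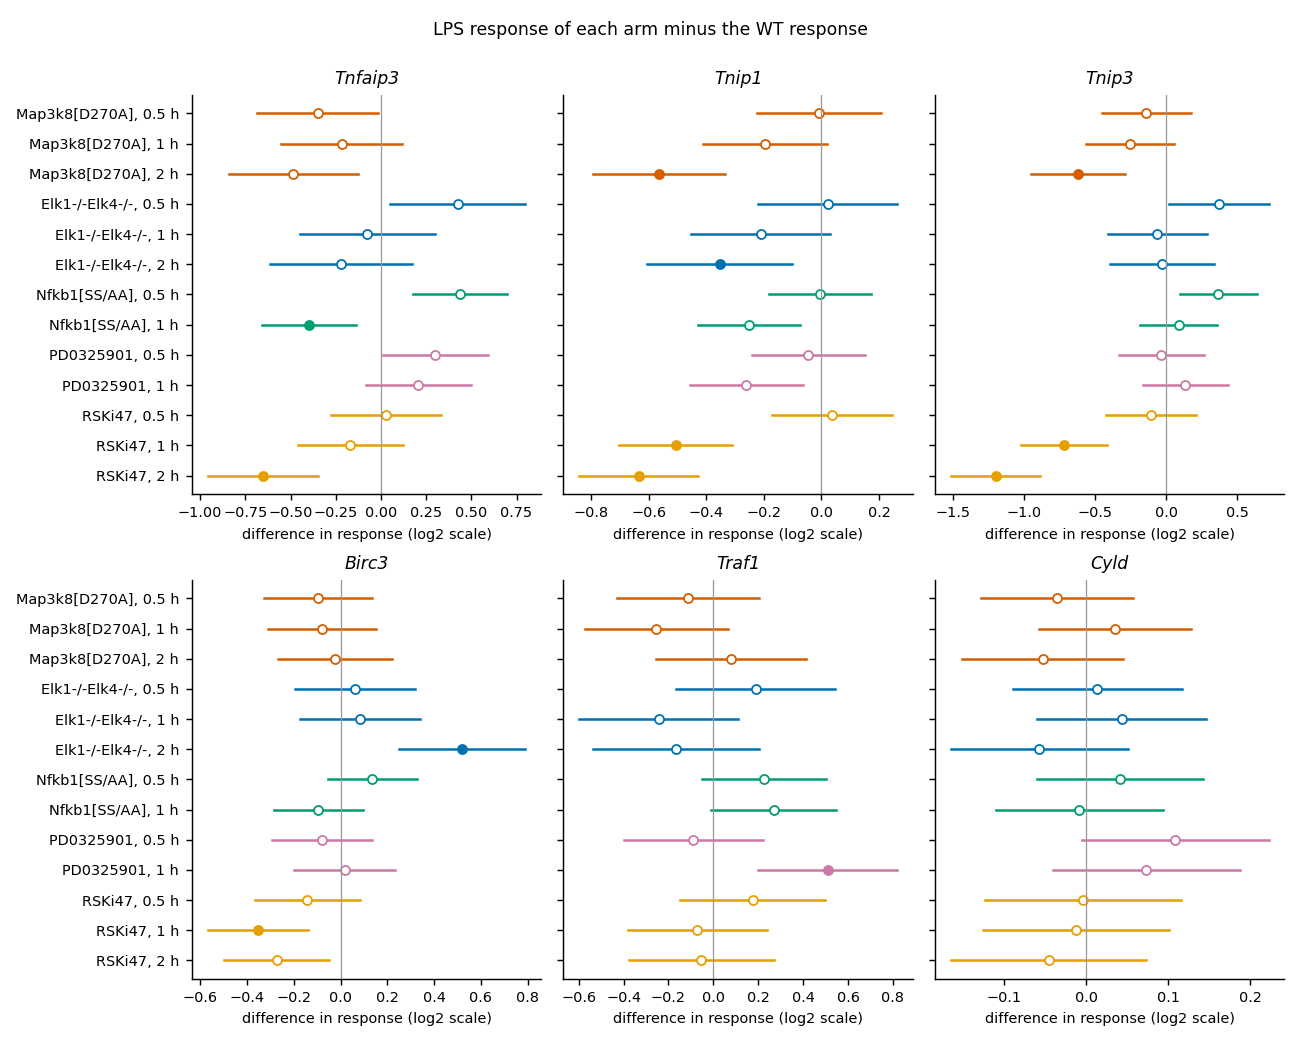
LPS response of each arm minus the WT response (x axis, log2 scale), by gene, with 95% intervals. Filled points passed at an adjusted p below 0.05. At 2 h *Tnip1* is lower in *Map3k8*[D270A], *Elk1*-/-*Elk4*-/- and RSKi47 cells (-0.56, -0.35 and -0.63), and *Birc3* is higher in *Elk1*-/-*Elk4*-/- cells (0.52).

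Set side by side at 2 h, the 3 arms with that time differed in which genes stood apart from WT. *Tnfaip3* was at 15.29 ± 0.11 (SD, n = 4) in WT, 14.88 ± 0.22 (SD, n = 6) in *Map3k8*[D270A], 15.05 ± 0.063 (SD, n = 4) in *Elk1*-/-*Elk4*-/- and 14.57 ± 0.24 (SD, n = 4) in RSKi47 cells. *Tnip1* was at 13.74 ± 0.083 (SD, n = 4), 13.06 ± 0.033 (SD, n = 6), 13.33 ± 0.068 (SD, n = 4) and 13.35 ± 0.017 (SD, n = 4). *Tnip3* was at 14.53 ± 0.24 (SD, n = 4), 13.93 ± 0.18 (SD, n = 6), 14.48 ± 0.10 (SD, n = 4) and 13.14 ± 0.28 (SD, n = 4) in the same order. Over all WT libraries both ABIN genes and *Tnfaip3* were lower with inactive TPL-2 and with RSKi47, and of these 3 *Tnip1* alone passed in *Elk1*-/-*Elk4*-/- cells. With the first WT set *Tnfaip3* passed there as well. Its call with inactive TPL-2 was lost without WT replicate 6 and after quantile normalisation. *Birc3* was at 12.12 ± 0.10 (SD, n = 4), 12.09 ± 0.26 (SD, n = 6), 12.57 ± 0.038 (SD, n = 4) and 11.98 ± 0.16 (SD, n = 4), and *Traf1* at 12.00 ± 0.090 (SD, n = 4), 11.96 ± 0.27 (SD, n = 6), 11.96 ± 0.051 (SD, n = 4) and 11.95 ± 0.25 (SD, n = 4). Differences between these arms other than WT were not tested.

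Ordered by mean over all 25 groups, most neighbours of each gene overlapped, which sorting by itself favours. Each gene but *Cyld* also had a wide break. For *Tnfaip3* it was 2.35, between the groups without and with LPS. For *Tnip1* (0.93), *Tnip3* (0.65), *Birc3* (1.02) and *Traf1* (0.99) the widest break parted the groups up to 0.5 h from those at 1 and 2 h. *Tnfaip3* ran from 11.37 ± 0.039 (SD) with 70 min of PD0325901 alone to 15.56 ± 0.038 in WT at 1 h, and in 4 of the 24 steps between neighbouring groups no library overlapped. *Tnip1* ran from 11.06 ± 0.13 in unstimulated *Map3k8*[D270A] cells to 13.74 ± 0.083 in WT at 2 h, with 4 such steps, the last of them between RSKi47 at 2 h and WT at 2 h. For *Tnip3* the range was 11.41 ± 0.16 in unstimulated *Nfkb1*[SS/AA] cells to 14.53 ± 0.24 in WT at 2 h, again with 4 separated steps. *Birc3* ran from 10.29 ± 0.057 with 70 min of PD0325901 to 12.57 ± 0.038 in *Elk1*-/-*Elk4*-/- cells at 2 h, with 2 separated steps, the upper one between WT and *Elk1*-/-*Elk4*-/- cells at 2 h. *Traf1* ran from 8.20 ± 0.18 in unstimulated *Nfkb1*[SS/AA] cells to 12.00 ± 0.090 in WT at 2 h, with 5. *Cyld* ran from 10.36 ± 0.071 to 10.70 ± 0.069, and none of its 24 steps separated neighbouring groups. All other neighbours overlapped in at least 1 library. PD0325901 alone put *Tnfaip3* at 11.60, 11.61 and 11.62 after 10 min, 11.42, 11.43 and 11.43 after 40 min and 11.34, 11.34 and 11.41 after 70 min, and 10 min of DMSO at 11.64, 11.64 and 11.68. The difference of 70 from 10 min was -0.24 ± 0.13 (SE, adjusted p = 0.346), and did not pass.

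Across the 25 group means, which share libraries, normalisation and the LPS time course, the genes most like each of the 6 by Pearson r were the following. For *Tnfaip3* they were *Nfkbiz* (0.991), *Socs3* (0.987) and *Csrnp1* (0.983), for *Tnip1* *Ptgs2os2* (0.993), *Relb* (0.989) and *Rhbdf2* (0.988) and for *Tnip3* *Mmd* (0.981), *Fam133b* (0.976) and *Csf1* (0.974). Those of *Birc3* were *Nfkbie* (0.991), *Noct* (0.988) and *Cflar* (0.987), those of *Traf1* *Lrrc63* (0.979), *Srp54c* (0.979) and *Ehd1* (0.976) and those of *Cyld* *Cdc73* (0.952), *Wapl* (0.944) and *Nr3c1* (0.941). Among the 6 themselves, *Tnip1*, *Tnip3*, *Birc3* and *Traf1* had r between 0.939 and 0.971 with each other, *Tnfaip3* had 0.684 to 0.806 with these 4, and *Cyld* 0.676 to 0.773 with the other 5.

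Other genes of the pathway were taken from lists, all of whose genes were tested. Errors here are SE. Of 11 IκB and NF-κB subunit genes, 8 had risen at 0.5 h of LPS in WT cells, and 11 at both 1 and 2 h. Their median difference was 0.46 at 0.5 h and 2.10 at 1 h. At 1 h the largest were *Nfkbiz* (4.49 ± 0.099, adjusted p = 1.32e-40), which encodes the nuclear co-regulator IκBζ, *Nfkbia* (3.42 ± 0.061, adjusted p = 1.04e-44), which encodes IκBα, and *Nfkbid* (3.01 ± 0.12, adjusted p = 1.23e-28), which encodes IκBNS. Of 24 genes for partners of A20, cIAPs, TRAFs and CYLD in ubiquitin signalling, 4 had risen at 0.5 h, 12 had risen and 2 fallen at 1 h, and 20 had risen and 3 fallen at 2 h, with median differences of 0.024, 0.11 and 0.60. The largest at 1 h were *Ripk2* (1.79 ± 0.071, adjusted p = 2.74e-29), a kinase of NOD signalling, *Tank* (1.21 ± 0.088, adjusted p = 8.27e-18), a TRAF-binding adaptor, and *Peli1* (1.15 ± 0.092, adjusted p = 4.08e-16), a ubiquitin ligase. Of 10 genes of receptor-proximal TLR4 signalling, 3 had risen and 1 fallen at 0.5 h, 6 and 1 at 1 h, and 7 and 2 at 2 h. *Irak2* (1.09 ± 0.061, adjusted p = 2.07e-22), a kinase of the MyD88 complex, and the adaptor genes *Ticam1* (0.97 ± 0.048, adjusted p = 5.18e-25) and *Myd88* (0.56 ± 0.045, adjusted p = 3.59e-16) led at 1 h. Counts over all genes in these comparisons are those given for WT cells above. At 0.5 h the counts depended on the set: with the first WT set 5 subunit genes, 1 ubiquitin partner and 0 receptor-proximal genes had risen, and with the second 8, 4 and 3.

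*Map3k8*[D270A] cells had 5 of the 11 IκB and NF-κB subunit genes lower at 0.5 h (1.37% of all genes passed), 8 at 1 h (9.79%) and 7 at 2 h (27.7%), with medians of -0.24, -0.22 and -0.31. The medians of all genes there were -0.0075, -0.00077 and 0.011. Within the first set 1 was lower at 0.5 h, 11 at 1 h, and at 2 h 8 lower and 1 higher, and within the second 7, 4 and 5 were lower. Of the 24 ubiquitin partners 2 were lower at 1 h, and 3 higher and 4 lower at 2 h, and of the 10 receptor-proximal genes 1 lower at 1 h, and 3 higher and 2 lower at 2 h. For the ubiquitin partners the first set gave 1 higher and 4 lower at 1 h and 8 higher and 5 lower at 2 h, and the second 1 higher at 1 h and 1 higher and 4 lower at 2 h. For the receptor-proximal genes it was 1 higher and 3 lower at 1 h and 2 higher and 1 lower at 2 h in the first set, and 0 at 1 h and 1 higher and 1 lower at 2 h in the second. The response at 1 h was lower for *Nfkbid* (-0.68 ± 0.17, adjusted p = 0.0180), *Rel* (-0.46 ± 0.12, adjusted p = 0.0213), which encodes c-Rel, and *Ticam1* (-0.25 ± 0.067, adjusted p = 0.0296), which encodes TRIF. For *Nfkbid* it was -0.82 (adjusted p = 0.000323) with the first WT set and -0.54 (adjusted p = 0.637) with the second, for *Rel* -0.58 (adjusted p = 0.000207) with the first WT set and -0.35 (adjusted p = 0.0879) with the second, and for *Ticam1* -0.34 (adjusted p = 0.00142) with the first WT set and -0.16 (adjusted p = 0.425) with the second. In *Nfkb1*[SS/AA] cells at 1 h the response was lower for *Nfkbid* (-0.86 ± 0.14, adjusted p = 1.72e-06), *Rel* (-0.64 ± 0.14, adjusted p = 0.000976), *Spata2* (-0.32 ± 0.056, adjusted p = 8.93e-06), which links CYLD to its ubiquitin ligase complex, and the ligase gene *Traf6* (-0.25 ± 0.057, adjusted p = 0.00134), and higher for *Relb* (0.25 ± 0.066, adjusted p = 0.00680) and *Ticam1* (0.25 ± 0.067, adjusted p = 0.0109). With the second WT set *Rel* and *Traf6* did not pass (-0.46, adjusted p = 0.157, and -0.21, adjusted p = 0.127), and with the first *Relb* and *Ticam1* did not (0.15, adjusted p = 0.244, and 0.14, adjusted p = 0.327).

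The subunit list in the other arms is given beside the share of all genes that passed, and then with each WT set, with which its direction at 0.5 h turned in 3 of the 4 arms. In *Elk1*-/-*Elk4*-/- cells 6 of 11 were lower without LPS (51.8% of all genes), 2 higher and 2 lower at 0.5 h (44.4%), 8 lower at 1 h (53.4%) and 7 lower at 2 h (50.8%). With the first WT set 7 were lower without LPS, 5 higher and 1 lower at 0.5 h, 11 lower at 1 h and 9 lower at 2 h, and with the second 4, 6, 5 and 4 were lower and 0 higher. *Nfkb1*[SS/AA] cells had 3 lower without LPS (32%), 3 higher and 1 lower at 0.5 h (32.3%) and 8 lower at 1 h (42.5%). The first WT set gave 4 lower, 5 higher and 9 lower at these times, and the second 1 higher and 2 lower without LPS, 3 lower at 0.5 h and 2 higher and 6 lower at 1 h. With PD0325901 7 were lower at 0.5 h (29.4%) and 7 at 1 h (35.7%), or with the first WT set 1 higher and 4 lower at 0.5 h and 10 lower at 1 h, and with the second 9 and 3 lower. With RSKi47 3 were higher without LPS (53%), 4 higher and 3 lower at 0.5 h (48.2%), 7 lower at 1 h (52.8%) and 2 higher and 6 lower at 2 h (52.1%). Against the first WT set these were 3 higher, 7 higher, 10 lower, and 2 higher and 6 lower, and against the second 3 higher without LPS, 3 higher and 5 lower at 0.5 h, 5 lower at 1 h and 3 higher and 5 lower at 2 h.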

How the data were processed

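RNA-seq of BMDMs was analysed in 119 libraries of 25 groups. The authors deposited 1 table of normalised values on a log2 scale for 18098 genes. The submitters' processing notes name RSEM 1.2.29, STAR 2.5.1b, DESeq2 1.10.1 and the mm10 build, and the study's methods describe single-end strand-specific reads and RefSeq genes. No source used here names the transformation behind the log2 values, and differences of low genes may be shrunk. The values ran from -2.40 to 19.8, apart from 1 value above 25, of a gene that is no member, which was set missing. The table holds no counts, so depth is unknown and no interval or floor that needs it is given. Every column matched a labelled library.

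Genes that reached a linear value of 10 in at least 4 libraries (WT, *Map3k8*[D270A] and *Elk1*-/-*Elk4*-/- libraries fitted together; 11884 genes) or in at least 3 libraries (all libraries; 11971 genes, for the other arms) were tested with limma 3.58.1 in R 4.3.3, with 1 mean per group and Benjamini-Hochberg adjustment over all genes tested; an adjusted p below 0.05 was called. The fits were tested on simulated data. Differences in response subtract the WT response from that of an arm, and for PD0325901 start from 40 and 70 min of inhibitor alone at 0.5 and 1 h. Whether replicate numbers pair libraries was checked by the correlation of deviations from group means: within WT all 30 pairs of libraries with the same number, and within *Nfkb1*[SS/AA] all 18, were above 0.1, while across WT and *Map3k8*[D270A] the correlations were negative.

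The 6 genes, the gene lists, the marker lists and the replicate sets were chosen with earlier results of these data known, and the use of each WT set alone for the other arms was chosen after seeing the data. Named were all 6 genes, the 3 related genes per list with the largest WT response at 1 h, up to 2 per list and direction with the largest difference in response for *Map3k8*[D270A] and *Nfkb1*[SS/AA] cells at 1 h, and the 3 genes most like each of the 6. Alternatives were no filter or a stricter one of 50, median centring, quantile normalisation, a mean-variance trend, other libraries in the fit, replicate blocks, averaged PD0325901 libraries, each replicate set, and leaving out each replicate number. Promoter windows came from RefSeq (GRCm38.p6).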

Additional observations from a re-analysis of the deposited data

Results flagged for a closer look

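Of 120 combinations of a gene and a group of 4 to 6 libraries, 12 held a library further from the others than Dixon's 95% limit. Chance alone gives this in about 1 of 20, but the 6 genes are read from the same libraries, so the combinations are not independent. For *Tnfaip3*, *Map3k8*[D270A] replicate 4 without LPS was at 11.86, with the others at 11.71 to 11.76. Also, *Map3k8*[D270A] replicate 4 at 1 h was at 15.34, with the others at 15.41 to 15.45. Further, RSKi47 replicate 4 without LPS was at 11.69, with the others at 11.59 to 11.59. Likewise, *Nfkb1*[SS/AA] replicate 2 at 1 h was at 14.94, with the others at 15.14 to 15.24. For *Tnip1*, *Map3k8*[D270A] replicate 4 without LPS was at 10.81, with the others at 11.07 to 11.18. Also, RSKi47 replicate 3 at 2 h was at 13.37, with the others at 13.33 to 13.34. For *Tnip3*, WT replicate 6 at 2 h was at 14.89, with the others at 14.38 to 14.44. Also, *Map3k8*[D270A] replicate 4 at 0.5 h was at 12.06, with the others at 11.62 to 11.77. Further, *Elk1*-/-*Elk4*-/- replicate 4 at 2 h was at 14.33, with the others at 14.52 to 14.55. Likewise, RSKi47 replicate 4 at 2 h was at 12.71, with the others at 13.26 to 13.30. For *Cyld*, RSKi47 replicate 4 at 1 h was at 10.38, with the others at 10.57 to 10.60. Also, *Nfkb1*[SS/AA] replicate 2 at 1 h was at 10.21, with the others at 10.47 to 10.60. *Map3k8*[D270A] replicate 4 is named 4 times, RSKi47 replicate 4 is named 3 times and *Nfkb1*[SS/AA] replicate 2 is named 2 times.

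The LPS response differed from that of WT, by the test of the difference itself (limma, adjusted over all genes), in 12 cases. In *Map3k8*[D270A] cells it differed for *Tnip1* by -0.56 at 2 h (adjusted p = 0.000217) and *Tnip3* by -0.62 at 2 h (adjusted p = 0.00549). In *Elk1*-/-*Elk4*-/- cells it differed for *Tnip1* by -0.35 at 2 h (adjusted p = 0.0429) and *Birc3* by 0.52 at 2 h (adjusted p = 0.00424). In *Nfkb1*[SS/AA] cells it differed for *Tnfaip3* by -0.40 at 1 h (adjusted p = 0.0486). In PD0325901-treated cells it differed for *Traf1* by 0.51 at 1 h (adjusted p = 0.0437). In RSKi47-treated cells it differed for *Tnip1* by -0.51 at 1 h (adjusted p = 0.000192), *Tnip3* by -0.72 at 1 h (adjusted p = 0.000549), *Birc3* by -0.35 at 1 h (adjusted p = 0.0316), *Tnfaip3* by -0.65 at 2 h (adjusted p = 0.000691), *Tnip1* by -0.63 at 2 h (adjusted p = 1.09e-06) and *Tnip3* by -1.20 at 2 h (adjusted p = 2.75e-09). The values with each WT set, which end some of these calls, stand with the results of each gene.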

How the results depend on the processing

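The counts of the 6 genes that passed in each comparison, and their differences, were recomputed under each alternative, and values as reported stand in parentheses. A stricter filter and a mean-variance trend moved no count by more than 1.5 times and turned no direction. Without a filter on low values, the count was 0 for the *Nfkb1*[SS/AA] response at 1 h (1), 1 for the *Elk1*-/-*Elk4*-/- response at 2 h (2), 3 for *Nfkb1*[SS/AA] at 1 h (5). With each library centred on its median, the count was 0 for the *Nfkb1*[SS/AA] response at 1 h (1), 3 for *Nfkb1*[SS/AA] at 1 h (5). After quantile normalisation, the count was 0 for *Elk1*-/-*Elk4*-/- without LPS (1), 1 for the *Elk1*-/-*Elk4*-/- response at 2 h (2), 2 for PD0325901 at 0.5 h (1) and RSKi47 without LPS (1), and the sign turned to *Cyld* -0.015 for LPS at 1 h in *Map3k8*[D270A] cells, *Cyld* -0.023 for LPS at 2 h in *Map3k8*[D270A] cells and *Cyld* -0.031 for LPS at 2 h in *Elk1*-/-*Elk4*-/- cells. With other libraries in the fit, the count was 0 for the *Nfkb1*[SS/AA] response at 1 h (1), 1 for RSKi47 at 0.5 h (2), 2 for PD0325901 at 0.5 h (1), 3 for *Nfkb1*[SS/AA] at 1 h (5). With the replicate block within arms, the replicate number of an arm as a block, the count was 2 for the PD0325901 response at 1 h (1), 3 for the *Nfkb1*[SS/AA] response at 1 h (1). The gene added for PD0325901 was *Tnip1*, at -0.29 (adjusted p = 0.00746), but libraries of this arm with the same number correlated above 0.1 in 14 of 33 pairs, so the numbers are not taken to pair them. In *Map3k8*[D270A] cells 34 of 36 such pairs, with RSKi47 20 of 21 and in *Elk1*-/-*Elk4*-/- cells 20 of 24 were above 0.1. With a replicate block across arms, the bare number, which does not pair the arms, the count was 3 for *Map3k8*[D270A] without LPS (0), *Map3k8*[D270A] at 0.5 h (0), PD0325901 at 0.5 h (1) and PD0325901 at 1 h (1), 4 for *Map3k8*[D270A] at 1 h (2), and the sign turned to *Tnip1* -0.15 for *Nfkb1*[SS/AA] without LPS and *Tnip1* -0.15 for *Nfkb1*[SS/AA] at 0.5 h. Within WT 4 to 6 and *Map3k8*[D270A] 1 to 3, the count was 1 for *Map3k8*[D270A] at 0.5 h (0), 2 for the *Map3k8*[D270A] response at 1 h (0), 4 for *Map3k8*[D270A] at 1 h (2) and the *Map3k8*[D270A] response at 2 h (2), 5 for *Map3k8*[D270A] at 2 h (3), and the sign turned to *Birc3* 0.16 for *Map3k8*[D270A] at 2 h and *Traf1* 0.15 for *Map3k8*[D270A] at 2 h. Within WT 7 to 9 and *Map3k8*[D270A] 4 to 6, the count was 0 for *Map3k8*[D270A] at 1 h (2), 1 for the *Map3k8*[D270A] response at 0.5 h (0), 2 for *Map3k8*[D270A] at 0.5 h (0). With WT 4 to 6 only, the count was 0 for RSKi47 without LPS (1), 1 for LPS at 0.5 h in WT cells (2), the *Elk1*-/-*Elk4*-/- response at 0.5 h (0), the PD0325901 response at 0.5 h (0) and the RSKi47 response at 0.5 h (0), 2 for *Elk1*-/-*Elk4*-/- without LPS (1), the *Nfkb1*[SS/AA] response at 0.5 h (0), the *Nfkb1*[SS/AA] response at 1 h (1), PD0325901 at 1 h (1), the PD0325901 response at 1 h (1) and DMSO without LPS (1), 5 for PD0325901 at 0.5 h (1), and the sign turned to *Tnip3* 0.27 for PD0325901 at 0.5 h, *Tnfaip3* 0.48 for RSKi47 at 0.5 h and *Tnip3* 0.046 for RSKi47 at 0.5 h. With WT 7 to 9 only, the count was 0 for the *Elk1*-/-*Elk4*-/- response at 2 h (2), PD0325901 at 1 h (1), the PD0325901 response at 1 h (1) and DMSO without LPS (1), 1 for *Elk1*-/-*Elk4*-/- at 0.5 h (4), *Elk1*-/-*Elk4*-/- at 1 h (2) and the RSKi47 response at 0.5 h (0), 2 for *Nfkb1*[SS/AA] at 1 h (5) and RSKi47 at 1 h (4), 3 for PD0325901 at 0.5 h (1) and RSKi47 without LPS (1), and the sign turned to *Tnfaip3* -0.11 for *Elk1*-/-*Elk4*-/- at 0.5 h, *Tnfaip3* -0.087 for *Nfkb1*[SS/AA] at 0.5 h, *Tnip3* -0.30 for *Nfkb1*[SS/AA] at 0.5 h, *Tnip1* 0.0042 for *Nfkb1*[SS/AA] at 1 h, *Birc3* 0.026 for *Nfkb1*[SS/AA] at 1 h, *Tnfaip3* -0.47 for PD0325901 at 0.5 h, *Tnip1* 0.038 for PD0325901 at 1 h and *Tnfaip3* -0.45 for the RSKi47 response at 0.5 h. With PD0325901 libraries 3 apart in number averaged, the count was 0 for PD0325901 at 1 h (1) and the PD0325901 response at 1 h (1). Leaving out each replicate number in turn gave counts of 1 to 2 for the *Elk1*-/-*Elk4*-/- response at 2 h (2), 1 to 4 for *Elk1*-/-*Elk4*-/- at 0.5 h (4), 0 to 1 for *Elk1*-/-*Elk4*-/- without LPS (1), 0 to 1 for the *Nfkb1*[SS/AA] response at 0.5 h (0), 0 to 1 for the *Nfkb1*[SS/AA] response at 1 h (1), 3 to 5 for *Nfkb1*[SS/AA] at 1 h (5), 0 to 1 for the PD0325901 response at 1 h (1), 1 to 2 for PD0325901 at 0.5 h (1), 0 to 1 for PD0325901 at 1 h (1), 1 to 2 for RSKi47 at 0.5 h (2), 2 to 4 for RSKi47 at 1 h (4), 1 to 3 for the *Map3k8*[D270A] response at 2 h (2) and 1 to 2 for *Map3k8*[D270A] at 1 h (2). The WT count at 1 h was 5 under every alternative, and that at 2 h was 6 except after quantile normalisation, with 5. Within WT the replicate numbers pair libraries in every pair, across WT and *Map3k8*[D270A] they do not, and the block changed no other count by more than 1.5 times. In each of these cases the cause was not tested. No pseudocount was varied because the deposited values are already on a log scale, and without counts the depth, and what it could resolve, is unknown.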
